A study of Homo sapiens with 8 samples.

Results

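The sites described here are positions listed as bound by YTHDF2 less than 1000 nt inside the 3′ end of a gene. They were the distinct, strand-specific positions that lay in exactly 1 protein-coding gene of the GRCh38 gene table, on that gene's strand, where the gene spanned 10 kb or more. Readthrough genes were left out. Of 37613 distinct positions in the list, 3789 met this rule (10.1%), and they lay in 1839 genes. The gene's 3′ end is the end of its whole annotated span, so a gene that mostly uses an earlier polyadenylation site has its usual mRNA end outside the window.

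YTHDF2 was mapped by iCLIP2 in HEK293T cells, an established human embryonic kidney line, labelled wild type. In iCLIP2, ultraviolet light joins protein to RNA, an antibody against YTHDF2 pulls the pair down, and reverse transcription stops at the joined nucleotide. There were 8 libraries: 4 after 12 h in 20 µM STM2457, which inhibits the methyltransferase METTL3, with 0.2% DMSO as its solvent, and 4 after 12 h in 0.2% DMSO alone, a pair of treatments that bears on how far YTHDF2 binding needs m6A. The list gives 1 score per row and no value per library, so the treatments were not compared, the replicate spread and the read depth are unknown, and no test was made: every difference below is a description of this list.

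YTHDF2 is a cytoplasmic reader of N6-methyladenosine (m6A), the methylated adenosine that METTL3 and METTL14 place in mRNA, and it recruits deadenylation and decay factors to the mRNAs it binds. The methyltransferase acts on adenosines in the sequence known as DRACH. This mark is known to be frequent near stop codons and in 3′ untranslated regions, which commonly make up the end of a gene. Exon and stop codon positions were not used here, so coding sequence, untranslated region and intron are not told apart. Every distance from a gene end runs along the genomic span, introns included, and is not a distance along the mRNA.

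The bases around a member could be read where its position fell inside a sequence that RefSeq's GRCh38.p14 tables hold for another reason, the promoter of a neighbouring gene or a miRNA hairpin. For 10 members this gave 10 bases on each side of the site. They are shown because they are the members whose bases could be read, not for their scores, and they show which base the list points to. Each runs 5′ to 3′ on the RNA's strand, with T for U and the site as the base at position 11 of 21. Capitals mark a DRACH motif, that is A, G or T, then A or G, then A and C, then A, C or T.
FAM89A, chr1:231019832-231019852, minus strand: gagggatgTGACTgttgggaa
ZNF275, chrX:153351927-153351947, plus strand: ttcagccaGAACTGAACAcct
JPT1, chr17:75136040-75136060, minus strand: atgcttgtGAACTgcacaact
ESS2, chr22:19131220-19131240, minus strand: cagccaatGAACTcataaagc
ESS2, chr22:19131161-19131181, minus strand: ggtctctgGAACCgtggaagc
ESS2, chr22:19131086-19131106, minus strand: ccaGGACAGGACTctggtggc
ZSWIM8, chr10:73801594-73801614, plus strand: acttggctGGACAgatcatcc
TATDN2, chr3:10280795-10280815, plus strand: tgcttggaAGACTtgggggac
GEMIN7, chr19:45090574-45090594, plus strand: cgagccagGAACTctgggccc
TMEM201, chr1:9614489-9614509, plus strand: tacccctgaaacgtggggaat

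The base at the listed position was an A in all 10, and in 9 of them that A was the central adenosine of a DRACH motif. In TMEM201, a nuclear envelope protein gene, the A was followed by C and then G, which is outside DRACH. A DRACH motif lay in 23.6% of 491624 windows of 21 bases tiled over the promoter table, against 9 of these 10. The scores of the 10 ran from 59.9 in FAM89A, 21.3 in ZNF275 and 14.7 in JPT1 to 1.87 in GEMIN7, 1.28 in TMEM201 and 1.22 in the lowest of the 3 ESS2 sites. The score is the authors' own, positive and of a scale that the labels do not state, and it is used here only to order sites. Positions listed on 2 rows were ordered only weakly alike by their 2 scores, as given below, so this order is rough.

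With only the 5 central bases needed, 13 members could be read, 0.343% of them. All 13 had A at the site, C after it, and A or G before it (6 with A and 7 with G), and 12 had a full DRACH centred on the site. The 3 members this added were in FAM89A, in PMM2 and in TEPSIN, all with GAC at the centre. Of 273 other positions of the list that could be read, all had A at the site, A or G before it and C after it, and 233 had a centred DRACH (85.3%). Together, 286 of 286 positions had this 3-base core (exact 95% lower bound 98.7%), against 2.24% of 3-base windows of the promoter table. DRACH itself filled 1.54% of the table's 5-base windows. So in every position that could be read, the listed nucleotide was an adenosine in the core of the methylation motif. These positions are 0.760% of the list and lie at gene starts or hairpins, and the sources used here do not give how the authors placed each position. Whether a listed position is the crosslinked nucleotide or a motif adenosine chosen in or near a binding site is not stated there, so distances below are between listed positions, not necessarily between crosslinks.

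A pair of members, both in FAM89A, lay inside the 97-nt hairpin of MIR1182 on the same strand. They scored 59.9 and 32.6, at hairpin positions 83 and 4, and the one at position 83 was inside the mature miRNA hsa-miR-1182. TATDN2 had 1 member, scoring 4.42, at position 101 of the 102-nt MIR12127 hairpin.

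Within the last 1000 nt, sites were scarce at the very end and then spread widely. The terminal 100 nt held 90 members (2.38%), the next 100 nt held 370, and the number was highest between 300 and 400 nt, at 453. From there it was 446, 420, 409 and 411 per 100 nt, and 373 in each of the most inner bins. The median member lay 521 nt from the end, with quartiles at 310 and 753. Sites did not stop at the edge of the window: 188 members lay in the 50 nt just inside it and 182 sites in the 50 nt just outside, with median scores of 9.04 and 8.34.

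**Figure D1:**
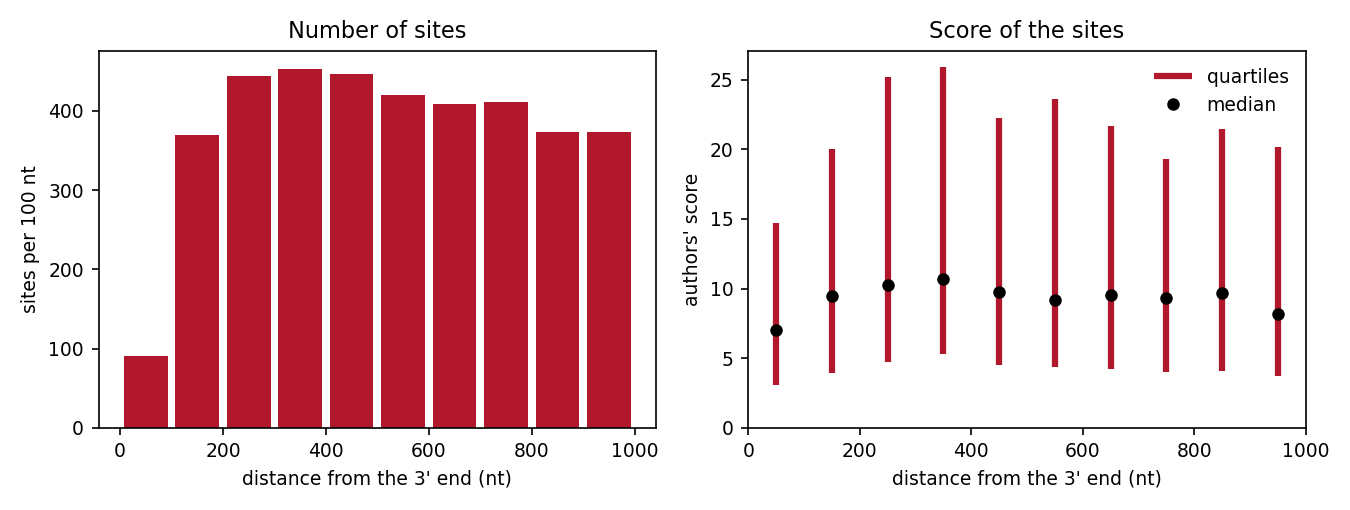
Left, members per 100 nt against distance from the gene's 3′ end in nt; right, the authors' score of the same sites, with the median as a point and the quartiles as a bar. The count goes from 90 in the terminal 100 nt to 453 at 300 to 400 nt, and the median score goes from 7.01 to 10.7 over the same bins.

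Genes of this size had 981 sites in their first 1000 nt, so the last 1000 nt held 3.86 times as many. The arrangement also differed. At the 5′ end the count was 92 in the first 100 nt, highest at 145 between 100 and 200 nt, and 77 in the innermost bin. Further into the gene from the 3′ end, sites declined slowly: 3439 lay between 1 and 2 kb, 2973 between 2 and 3 kb, 1733 between 4 and 5 kb and 508 between 9 and 10 kb. From the 5′ end, 546 lay between 1 and 2 kb and 300 between 4 and 5 kb. In genes spanning 20 kb or more, 2661 sites lay in the last kilobase, 2663 between 1 and 2 kb and 2324 between 2 and 3 kb. The last kilobase thus lay at the top of a broad slope, several kilobases long in genomic distance, and was not an isolated peak. How much of the first or the last kilobase is intron was not measured. In genes of 20 kb or more it was level with the next kilobase.

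**Figure D2:**
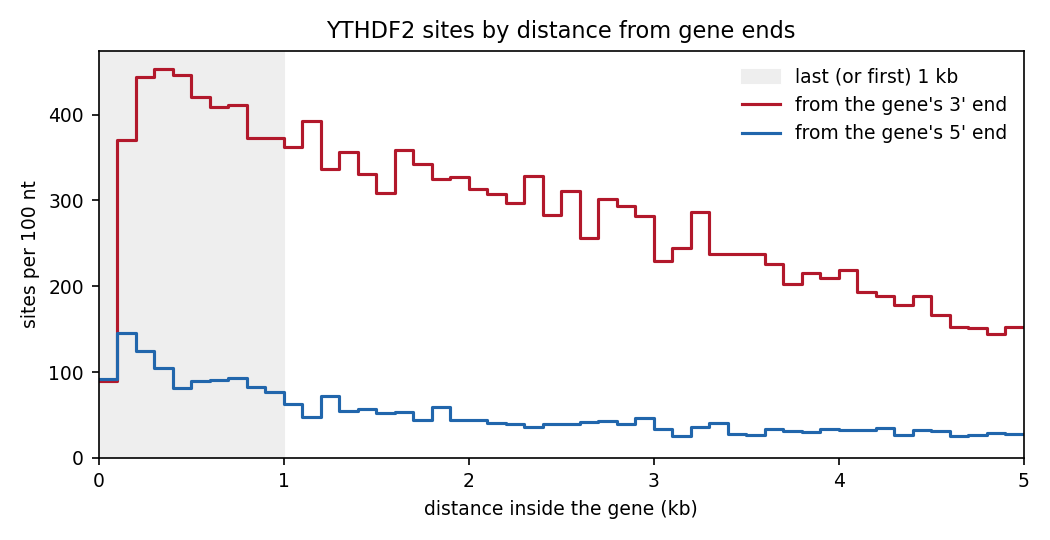
Sites per 100 nt in genes spanning 10 kb or more, against distance inside the gene in kb from its 3′ end (red) and 5′ end (blue), with the 1-kb window shaded. The red line peaks at 453 inside the window and declines over the next kilobases, while the blue line peaks at 145.

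Of 6003 genes with a site among the 14251 that span 10 kb or more, 1839 had a member (30.6%). In 949 others the nearest site lay 1 to 2 kb from the 3′ end, in 1428 it lay 2 to 5 kb away, in 609 it lay 5 to 10 kb away, and in 1178 (19.6%) it lay 10 kb or more away. Both ends carried sites in 164 genes, the last 1000 nt alone in 1675 and the first 1000 nt alone in 447. Members were 12.6% of the 29959 sites in genes of this size, and first-kilobase sites 3.27%.

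Shorter genes had a larger share of their sites in the window. The window has a fixed length and so covers a larger part of a shorter gene. The shares below were not corrected for this, so their order does not show that sites are more concentrated at the end in shorter genes. Members were 21.7% of the sites in genes of 10 to 20 kb, 15.5% at 20 to 50 kb, 9.62% at 50 to 100 kb, 6.65% at 100 to 300 kb and 3.31% above 300 kb. The share of bound genes with a member followed the same order, from 45.0% to 11.5%. Against the first kilobase, the ratio was 4.00 at 10 to 20 kb, 4.28 at 20 to 50 kb and 3.54 at 100 to 300 kb. In the 218 bound genes above 300 kb it was 0.976, from 41 members and 42 first-kilobase sites. Sites at the 3′ end thus did not outnumber those at the 5′ end in this group of very long genes.

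Among chromosomes, members were most numerous on chromosome 1, with 450, and on chromosomes 19 and 17, with 313 and 308. As a share of the sites in such genes they were 18.8% on chromosome 20, 18.3% on chromosome 19 and 17.0% on chromosome 17, against 13.0% on chromosome 1 and 5.54% on chromosome 13, where 35 of 632 sites were members. The share varies with gene span, as given above, and gene spans were not compared between chromosomes.

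Most genes had few members. A single one was found in 918 genes, 2 in 415, 3 in 249 and 4 or more in 257, and the last group held 34.2% of all members. The genes with the most are ordered here by number. PMM2, the phosphomannomutase of protein glycosylation, had 10 of its 11 sites in the window, on chromosome 16 from 8848389 to 8849226. Their scores ran from 0.377 to 78.2, with the highest 511 nt from the end, and 5 of the 10 scored below 5. ABCF1, a ribosome-associated ATPase that acts in translation initiation, had 9 of 10, on chromosome 6 from 30590730 to 30591346. Its strongest scored 193 at 743 nt, and the other 8 lay between 4.23 and 41.0.

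PPP4R1, a regulatory subunit of protein phosphatase 4, had 9 of 14 sites in the window, with scores from 0.0301 to 42.3. It spans 70.4 kb, so these 9 occupied 611 nt of a long gene. POMGNT2, a glycosyltransferase of dystroglycan, had 8 of 13, and a pair of its members scored 161 and 145 while its other 6 scored 31.7 or less. One of them lay at the innermost position the rule admits. NFIL3, a bZIP transcriptional repressor, had 8 of 11, with scores up to 62.6. ZMYND8, a reader of acetylated histones, had 8 of 15, all of them more than 600 nt from the end. ZFP64, a zinc finger gene, had 8 of 16, and 6 of them stood within 192 nt.

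ARHGAP17, a GTPase-activating protein, had all of its 8 sites in the window although it spans 96.0 kb. One scored 144 and the others from 1.95 to 34.6. DDX23, a helicase of the spliceosome, also had all 8. Its members at 349, 365, 389 and 394 nt scored 55.4, 25.8, 135 and 121, and these 4 stood within 46 nt of chromosome 12. ITGA5, the integrin chain that pairs in the fibronectin receptor, had all 8, scoring 3.53 to 53.4. In PMM2, ABCF1, POMGNT2 and ARHGAP17, 1 or 2 members scored over 4 times as high as the next, whereas in the other 6 of these 10 genes the highest scored less than 3 times as high as the next.

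**Figure D3:**
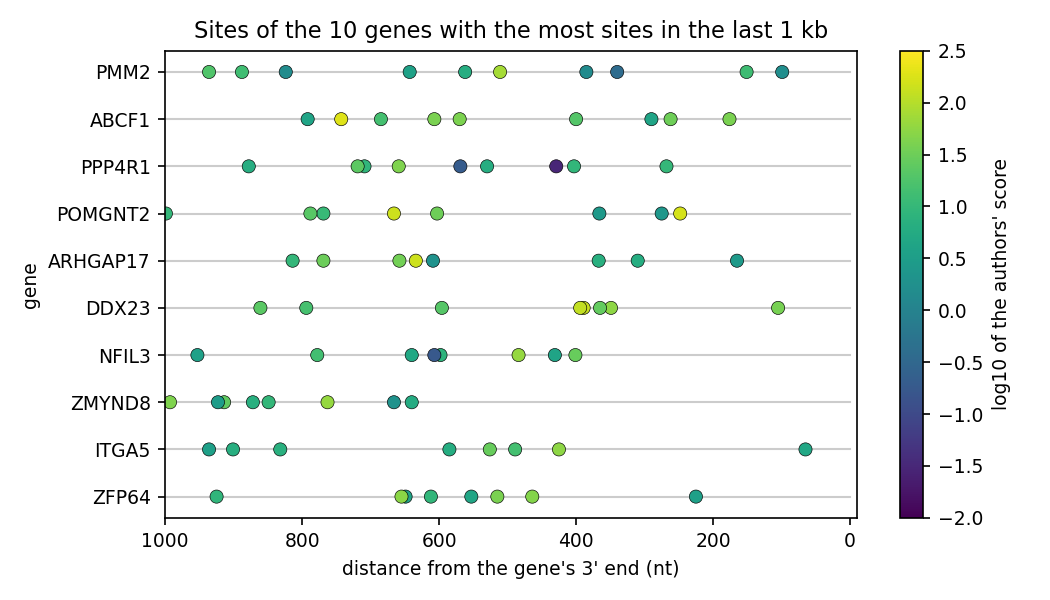
Members of the 10 genes with the most of them, placed by distance from the gene's 3′ end in nt (end at the right) and coloured by log10 of the authors' score. ZMYND8 has no member within 600 nt of the end, DDX23 has 4 members between 349 and 394 nt, and scores within a gene vary widely, as in ABCF1 from 4.23 to 193.

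Every site of the gene was a member in 592 genes, 304 of which had a single site. Of 859 genes with 5 or more sites and at least 1 member, 40 had all their sites in the window and 213 had 50% or more. Besides ARHGAP17, DDX23 and ITGA5, the genes with every site in the window included ZNF581 with 8 members, and BAG3, PYM1, RCL1, GOT2 and CCDC51 with 7 each. BAG3, a co-chaperone of HSP70, scored 122 at 219 nt, 50.3 at 463 nt and 36.7 at 738 nt, and its other 4 scored 3.24 to 29.8. PYM1 takes part in removing exon junction complexes from translated mRNA, and its best member scored 109. GOT2, the mitochondrial aspartate aminotransferase, had a best score of 59.2, and 3 of its members scored above 58. RCL1, a ribosomal RNA processing factor, reached 87.6, CCDC51 45.6 and ZNF581 20.9.

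Genes with many sites often had none at the end, though less often than all bound genes. Of all 6003 genes with a site, 4164 had no member, and of 2385 with 5 or more sites, 1526 had none. Of 795 genes with 10 or more sites, 490 (61.6%) had no member. Among those with the most sites were AHNAK with 95, MKI67 with 54, KMT2D with 46 and TASOR2 with 45. In MKI67, a marker of dividing cells, the nearest site was 1220 nt from the end, just beyond the window. In KMT2D, a histone methyltransferase, the nearest was 2549 nt away. In AHNAK, a giant scaffold protein, the nearest lay 83126 nt from the end of the annotated span, and in TASOR2 13803 nt.

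The highest-scoring members are described next, with the other sites of their genes. DEGS1, a sphingolipid desaturase, had 3 members, at 708, 231 and 157, placed 929, 893 and 794 nt from the end. Its 4 sites outside the window had a median of 318.9, so strong sites were not confined to the end of this gene. The score of 708 is the maximum of the list and is shared by 12 positions, of which this is the only member, so these have no order among them. DYNLL1, a dynein light chain, had both of its sites in the window, scoring 665 and 120 at 208 and 236 nt. NR2F6, an orphan nuclear receptor, had 5 members, of which the highest scored 413 on one row and 55.1 on another. The next in that gene scored 74.9 and 36.7.

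EIF4G1, the scaffold of the cap-binding complex, had 18 sites, and its 3 members at 326, 386 and 415 nt scored 113, 361 and 118. The median of its other sites was 5.10.

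Other genes among the 10 with the highest scores were DNAJA1, an HSP40 chaperone, at 352, MRPL14, a mitochondrial ribosomal protein, at 346, TIMM17A, a mitochondrial import subunit, at 326, and OSTC, a subunit of the oligosaccharyltransferase complex, at 290. The DNAJA1 member is on 2 rows whose scores were 352 and 2.58, so its place in this order rests on which row is used. For TIMM17A the lower score was 61.1 and for OSTC 67.7.

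Members had a median score of 9.52, with quartiles of 4.29 and 21.8. First-kilobase sites had a median of 7.56, and the other sites of genes of 10 kb or more 8.32. Scores of 100 or more were given to 134 members (3.54%), 18 of 981 first-kilobase sites (1.83%) and 681 of the 25189 others. Of these others, 6282 lay in genes with a member, and 233 of the 6282 scored 100 or more (3.71%). Their median was 8.88 and their upper quartile 22.6. High scores were thus about as frequent at these other sites of the same genes as at members. Along the window the median was 7.01 in the terminal 100 nt, 9.46 to 10.7 between 100 and 500 nt, and 8.15 at 900 to 1000 nt.

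Genes differ in score, so members were also set against the sites of the same gene beyond 1000 nt, as the difference in median percentile rank. In 1247 genes with both kinds, members ranked 1.52 percentile points higher on average, with an SD over genes of 34.0, and were higher in 640 genes and lower in 607. Members less than 500 nt from the end ranked 4.02 points higher (SD 35.4, 743 genes, higher in 404), whereas those at 500 nt or more differed by 0.190 points (SD 33.7, 815 genes, higher in 407). Around the mean over all 1247 genes, an interval of -0.617 to 3.66 points was set. Its width is that of the 95% interval of the median, so it is not a 95% interval of the mean. With sites at 500 to 1000 nt counted among the other sites, members under 500 nt ranked 1.56 points higher (-0.567 to 3.68, made in the same way). The highest-scoring site of the gene was a member in 488 of the 1247 genes (39.1%), where members made up on average 36.1% of a gene's sites.

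Many members stood close to another. Of 1950 pairs of adjacent members of the same gene, 530 were 50 nt or less apart (27.2%) and 985 were 100 nt or less apart (50.5%), with a median of 99 nt and a smallest distance of 4 nt, found in 11 pairs. A neighbour on the same strand within 50 nt was found for 26.1% of members (exact binomial 95% interval 24.7 to 27.6), for 22.0% of first-kilobase sites (19.5 to 24.7) and for 30.2% of the other sites (29.6 to 30.8). These intervals cover counting error only, and sites of one gene are not independent. The share was 16.7% in the terminal 100 nt and highest, 36.7%, at 600 to 700 nt.

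**Figure D4:**
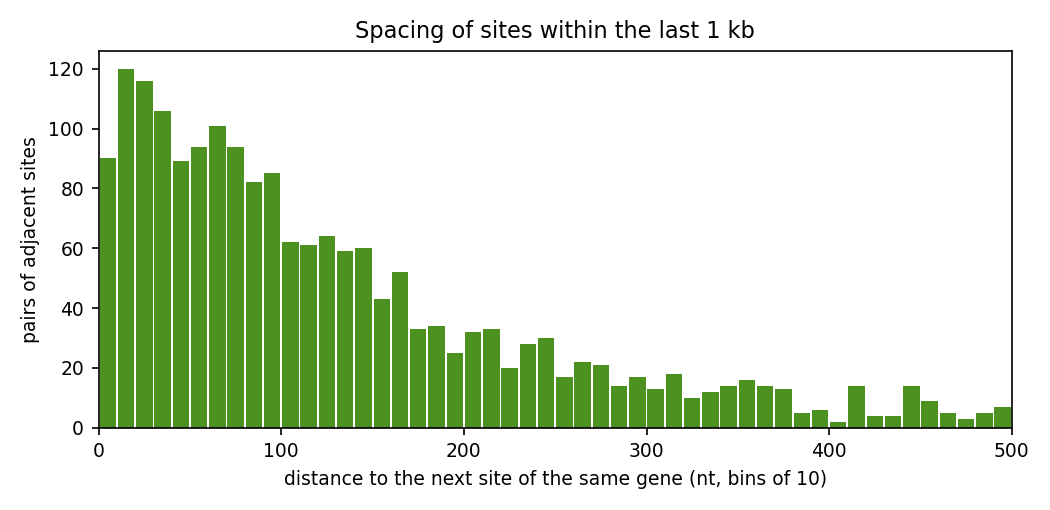
Pairs of adjacent members of the same gene against the distance between them in bins of 10 nt, shown up to 500 nt. The bins at 10 to 20 and 20 to 30 nt are the highest, with 120 and 116 pairs, and the bin below 10 nt has 90.

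The densest groups held 6 members within 200 nt. In SEPHS1, a homologue of selenophosphate synthetase, all 6 members lay on chromosome 10 from 13317522 to 13317707, scoring 5.26 to 39.2, and in ZFP64 6 lay on chromosome 20 from 52084475 to 52084666. SNUPN, the import adaptor of spliceosomal snRNPs, had 5 within 95 nt, with scores up to 13.0. INTS14, an Integrator subunit, had 5 within 177 nt, with scores from 10.3 to 177. DAGLB, a diacylglycerol lipase, had 4 within 44 nt, and RPTOR, the scaffold of mTORC1, 4 within 69 nt.

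The list falls by the order of its rows into a shorter part of 8935 rows and a longer part of 34243 rows, and which libraries each stands for is not labelled. Of the members, 2994 were in the longer part alone (79.0%), 271 in the shorter alone (7.15%) and 524 in both (13.8%). For the 25189 other sites of genes of 10 kb or more these shares were close to that, at 76.9%, 8.97% and 14.2%. First-kilobase sites were in the shorter part alone in 15.1% of cases. The ratio of last- to first-kilobase sites was 4.42 for sites of the longer part alone, 3.36 for those in both and 1.83 for those of the shorter part alone. The median distances of these members from the 3′ end were 526.5, 499 and 510 nt in that order. Median scores were 8.93, 20.9 and 4.23, where the 20.9 is raised by taking the higher of 2 scores at each position. Members in both parts scored higher in the longer part in 372 of 524 cases, with medians of 18.5 and 7.30. Across these 524 the Spearman correlation of the 2 scores was 0.166, so the parts ranked the same positions only weakly alike. The score orders and percentile ranks given here pool both parts.

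Some members also lay inside an annotated gene of any type other than protein-coding, called noncoding here. This was so for 289 (7.63%, exact binomial 95% interval 6.80 to 8.52), against 5.81% of first-kilobase sites (4.43 to 7.46) and 4.96% of the others (4.69 to 5.23). The noncoding gene ran on the other strand for 163 of them and on the same strand for 29, and its strand was not known for 97. All 8 members of ITGA5 lay within GPR84-AS1 and all 8 of ZFP64 within LOC105372664, in each case on the other strand. All 6 members of TTC4, a co-chaperone, lay within MROH7-TTC4 on the same strand, where the RNAs cannot be told apart.

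Gene groups were described by the share of their sites that were members, beside 12.6% over all genes of 10 kb or more, and by the share of bound genes with a member, beside 30.6%. Since this share varies with gene span, the median span of each group's bound genes is set against 44.3 kb over all bound genes. The groups were tested neither against each other nor against all genes.

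Genes of cholesterol and fatty acid synthesis had the largest shares of both kinds, with a member in 15 of 22 bound genes (68.2%) and 23 of 96 sites (24.0%), at a median span of 31.8 kb. SCAP, the sterol-sensing escort of SREBP, had all 3 of its sites in the window, at 106, 177 and 336 nt, scoring 19.6, 56.0 and 5.97. SCD, the stearoyl-CoA desaturase, had 2 of 10, which scored 244 and 162 at 313 and 256 nt.

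mTOR and AMPK signalling followed with 18 of 77 sites (23.4%) in 7 of 19 bound genes (36.8%), at 54.0 kb. RPTOR had 6 of 13 sites, best 48.1. The translation repressor EIF4EBP1 had all 4 of its sites there, best 123, and the kinase MTOR all 4, with scores of 17.5, 16.4, 9.21 and 0.760. In receptor tyrosine kinase, insulin and RAS signalling, 19 of 174 sites were members (10.9%), in 7 of 27 bound genes (25.9%), at 91.97 kb. The receptor EPHA2 had 3 of 5 and ERBB2 all 3.

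Among factors that act on mRNA ends and decay, the groups varied widely. CCR4-NOT and other deadenylation factors had 12 of 55 sites (21.8%) in 5 of 13 bound genes (38.5%), at 84.0 kb. CNOT2, a CCR4-NOT subunit, had 6 of 8, scoring 18.1 at 142 nt and from 0.0316 to 6.50 at the others, so 1 of the 6 scored above 10. CNOT11 and PAN2 had 2 of 4 each. Cleavage and polyadenylation factors had 20 of 93 (21.5%) in 7 of 16 bound genes (43.8%), at 46.8 kb. CPSF7, a subunit of cleavage factor I, had 4 of 6, and a pair 10 nt apart scored 237 and 243. SCAF8 and RBBP6 had 4 of 11 each.

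Decapping and P-body factors had 6 of 55 (10.9%) in 5 of 14 bound genes (35.7%), at 56.7 kb, and LSM1, a subunit of the ring that activates decapping, had both its sites in the window, best 43.9. Argonaute, TNRC6 and microRNA processing genes had 3 of 104 sites (2.88%) but a member in 3 of 9 bound genes (33.3%), at a median span of 122 kb: 1 member each in AGO2, DROSHA and TNRC6A, all scoring below 8. AU-rich, Pumilio and other 3′ UTR binding regulators had 1 of 57 (1.75%) in 1 of 14 bound genes (7.14%), at 76.0 kb, in KHSRP with a score of 5.10. For m6A writers, erasers and readers it was 7 of 139 (5.04%), in 6 of 18 bound genes (33.3%), at 51.9 kb. YTHDF1, a paralog of YTHDF2, had 2 of 11, at 129 and 0.663, and the writer subunit VIRMA and the reader IGF2BP2 had 1 each.

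Translation initiation and elongation factors had 16 of 116 (13.8%) in 10 of 22 bound genes (45.5%), at 23.9 kb, and EIF3B, an eIF3 subunit, had 4 of 13, best 39.2. SR proteins and hnRNPs had 8 of 70 (11.4%) in 5 of 23 bound genes (21.7%), at 20.6 kb, with 3 of 4 sites of SRSF4 in the window, best 54.5. Chaperones and the unfolded protein response had 12 of 117 (10.3%) in 8 of 20 bound genes (40%), at 53.7 kb, with a median member score of 47.0. PDIA4, a protein disulfide isomerase, had 4 of 14, scoring 210, 161, 66.5 and 39.0.

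Chromatin genes had a low share of their sites at the end, beside many sites elsewhere. Their shares of genes with a member, 25% to 32%, lay around the 30.6% over all genes. Histone lysine methyltransferases and demethylases had 23 of 439 (5.24%) in 11 of 36 bound genes (30.6%), at 87.3 kb. The demethylase KDM1A had 4 of 6, best 58.6, and the H3K36 methyltransferase SETD2 4 of 32. Chromatin remodelling genes had 13 of 244 (5.33%) in 6 of 24 bound genes (25%), at 93.7 kb, of which CHD8 held 7, scoring 87.8 at 351 nt and 28.9 or less at the others. The 2 members of CHD4 included 1 at 115. Mediator and coactivator genes had 10 of 243 (4.12%) in 8 of 25 bound genes (32.0%), at 97.0 kb, with BRD2 best at 61.5. DNA repair genes had 4 of 151 (2.65%) in 4 of 22 bound genes (18.2%), at 87.3 kb, best 39.4 in XRCC6. Cytoskeleton, kinesin and dynein genes had 13 of 314 (4.14%) in 8 of 29 (27.6%), at 81.1 kb, with DYNLL1 the highest.

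The other signalling, cell cycle, turnover and energy groups had shares of sites below the 12.6% over all genes, though in cell cycle regulators the share of genes was above 30.6%. Wnt pathway genes had 10 of 124 (8.06%) in 4 of 20 bound genes (20.0%), at 66.2 kb, 5 of them in WNT5B, a ligand all of whose sites were members, though none scored above 9.43. TGF-beta and BMP genes had 6 of 127 (4.72%) in 4 of 20 (20.0%), at 80.2 kb, with 3 in SMAD3. Cell cycle regulators had 14 of 173 (8.09%) in 9 of 26 bound genes (34.6%), at 34.7 kb. The mitotic kinase AURKA had all 3 of its sites in the window, at 270, 3.96 and 0.298, the first of them on 2 rows. HECT and Cullin ligases had 19 of 230 (8.26%) in 8 of 33 (24.2%), at 117 kb, with KEAP1, the sensor that holds NRF2 in check, at 136, 28.4 and 16.9 and CUL1 best at 110. Deubiquitinases had 17 of 198 (8.59%) in 8 of 34 (23.5%), at 81.6 kb, with 5 in USP24, best 57.0. Glycolysis had 4 of 40 (10.0%) in 3 of 10 bound genes (30%), at 33.0 kb, with both sites of PKM, best 69.8. Nuclear-encoded oxidative phosphorylation had 3 of 34 (8.82%) in 3 of 17 (17.6%), at 20.0 kb, best 61.2 in COX7A2.

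Kidney-lineage transcription factors, listed as genes of the tissue the line came from, had a site in 5 genes of 10 kb or more, and 6 of their 43 sites were members (14.0%), 4 in SALL2 and 2 in SALL1, at a median span of 16.4 kb. Haematopoietic markers, genes of cells that the culture should not hold, had no site in any of 10 genes of that span. Sites depend on expression and length as well as binding, and expression was not used here.

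**Figure D5:**
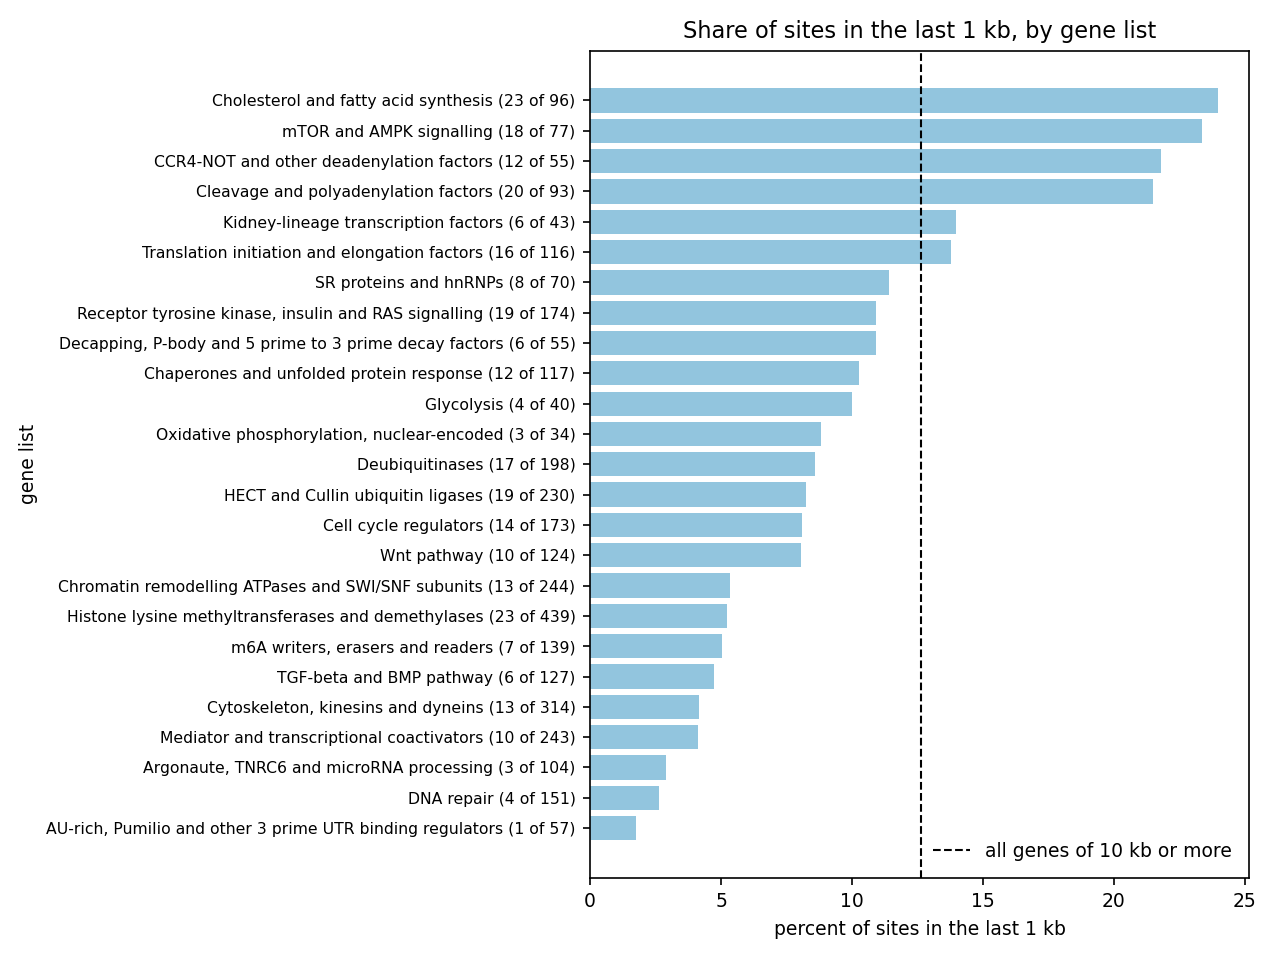
Members as a share of each group's sites, in percent, with members and sites in brackets and a dashed line at 12.6% for all genes of 10 kb or more. Cholesterol and fatty acid synthesis is highest at 24.0% and AU-rich, Pumilio and other 3′ UTR binding regulators lowest, among groups with a site, at 1.75%.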

How the data were processed

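The deposited list, without a header, holds 43178 rows, each a stranded 1-nt position with a score. The score is the authors' own; its scale and normalization are unknown here. Per the submitters' processing notes, the build was GRCh38.p12, and the tools, in no stated role, included bedtools 2.27.1, UMI-tools 1.0.0, STAR 2.7.3a and FastQC 0.11.8. The sources used here do not give the site caller, its filters or how libraries were combined, and any such filter would shape every count. Whether the replicates are separate cultures is not labelled.

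Where a position had more than 1 row on a strand, the higher score was used. Positions are counted from 1. Gene spans came from a RefSeq table of GRCh38.p14, whose main chromosomes match p12, with 19943 protein-coding genes. Strands came from RefSeq's promoter table, and otherwise from the majority of the gene's own sites. Of 6198 genes with both, 6191 had the same strand. Members were the positions in exactly 1 gene, on its strand, less than 1000 nt from its 3′ end. Percentile ranks are over all assigned positions. The planned motif and untranslated region results needed a genome and were not made. The motif reading from RefSeq's promoter and hairpin tables was added after seeing the data.

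Named genes were the 10 with the most members, the 10 with the highest-scoring members, the 10 with the largest share of members among genes with 5 or more sites, the 5 with the most sites and no member, and up to 3 per list from 26 gene lists. The genes named from readable sequence, noncoding overlap or dense groups fall outside this rule and were chosen after their values were seen. Some genes that the rule names are not reported here. Members and lists were chosen with earlier results of these data known. The steps were tested on simulated sites. Computation used Python 3.11.15 with pandas 2.3.3 and scipy 1.17.1.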

Additional observations from a re-analysis of the deposited data

How the results depend on the processing

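No paired analysis was possible because the list has no values per library, and no replicate could be left out for the same reason. Of 60 values recomputed under alternatives, 34 stayed within 1.5 times (counts) or inside the 95% interval of the value (others), and 26 did not. For score differences within genes, this was the interval set around the mean as described above. Some alternatives fix the direction of a change in advance. A score cut raises the median score, the lower of 2 scores lowers it, and a wider neighbour distance raises the neighbour share. The count of 26 therefore does not measure robustness alone. Assigning opposite-strand overlaps by strand (4006 sites in 1949 genes) and using reference strands alone (ratio of last to first kilobase 4.12) were alternatives added after seeing the data. With a window of 2000 nt there were 7228 sites in 2788 genes and a ratio of 4.73, and with 500 nt 1803 sites in 1140 genes and 3.30. The shorter part of the list alone gave 795 sites in 632 genes, a ratio of 2.62, a median score of 5.59, 49.6% of sites under 500 nt, 7.67% with a neighbour within 50 nt and a score difference within genes of 5.16 points. The longer part alone gave a ratio of 4.22. Sites at or above the list's median score gave 2011 sites in 1180 genes, a ratio of 4.60, a median score of 20.4, 21.6% on 2 rows, 19.5% with a neighbour and a score difference within genes of −1.94 points, of the other sign than 1.52. The lower of 2 scores gave a median of 7.80, joining sites within 50 nt a median of 10.2, and genes of 20 kb or more 12.6% on 2 rows. Neighbours within 20 and 100 nt were found for 11.4% and 45.1% of members. The DRACH and 3′ untranslated region alternatives were not run, since no genome or exon annotation was used here. Read depth is unknown, so it cannot be said which genes lack members for want of reads.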
